A study of Homo sapiens with 12 samples.

Results

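The 6 annotated human genes of retroviral origin described here were ERVW-1, ERVFRD-1, ERV3-1, ERVMER34-1, ERVK13-1 and ERVK3-1. They were listed by name, not by any measured value, although earlier results of these data were known when they were chosen. All were found by their Ensembl identifiers among the 60651 genes of the count table. RNA sequencing covered 12 libraries of 2 established cholangiocarcinoma cell lines labelled wild type, EGI-1 and HUCCT1, with 2 libraries in each of 6 conditions, all harvested after 72 h. EGI-1 cells received vehicle, 0.5 µM decitabine, 200 nM talazoparib or both agents at these doses. HUCCT1 cells received vehicle (DMSO in the labels) or 1 µM decitabine. The 6 genes were read in all conditions to see how annotated retroviral genes behaved under a DNA methyltransferase inhibitor, a PARP inhibitor and their combination.

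Endogenous retroviruses are remnants of germ-line infections, and most copies are silenced by DNA methylation and by repressive histone marks. Decitabine is a cytidine analogue that enters DNA and traps DNA methyltransferases, and reactivation of silenced retroviral copies is a known effect of such drugs in cancer cells. Talazoparib inhibits PARP enzymes and traps them on damaged DNA. A few retroviral envelope genes were kept by the host. ERVW-1 encodes syncytin-1 and ERVFRD-1 encodes syncytin-2, the envelope proteins that fuse trophoblasts into the syncytiotrophoblast of the placenta. ERV3-1 encodes a truncated envelope protein that is abundant in placenta, and ERVMER34-1 encodes HEMO, an envelope protein shed into the blood in pregnancy. ERVK13-1 and ERVK3-1 carry sequence of the HERV-K group, and the first of them is annotated as a long non-coding RNA.

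The genes lie at separate sites of GRCh38 in the GENCODE 44 annotation, and their neighbours matter for reading the counts. ERVW-1 (ENSG00000242950.7) spans chr7:92468380-92477986 on the minus strand, and ERVFRD-1 (ENSG00000244476.3) spans chr6:11102489-11111725 on the minus strand. Neither of these syncytin genes shares an exonic base with another gene, although on the other strand SMIM13 crosses the span of ERVFRD-1 and the long non-coding RNA ENSG00000244055 that of ERVW-1. ERV3-1 (ENSG00000213462.5) spans chr7:64990356-65006743 on the minus strand, and 16.4% of its 5027 exonic bases are also exonic in the zinc finger gene ZNF117 on the same strand. ERVMER34-1 (ENSG00000226887.8) spans chr4:52722618-52751586 on the minus strand and shares 8.7% of its exonic bases with DANCR and LINC01618, which run the other way, and its span also holds the small nucleolar RNA ENSG00000212490. ERVK13-1 (ENSG00000260565.7) spans chr16:2660348-2682398 on the minus strand with no shared exonic base. ERVK3-1 (ENSG00000142396.10) spans chr19:58305374-58316812 on the plus strand, and 54.2% of its 6117 exonic bases are shared, 14.3% with ZNF8-ERVK3-1 and ENSG00000283515 on its own strand and 49.5% with the antisense long non-coding RNA ENSG00000283103. The use of strand in counting is not given in the sources used here, so reads of ERVK3-1 and of its antisense partner cannot be told apart. The handling of reads that map to several places is not given either. Reads that also match other retroviral copies may therefore be lost or counted at these genes, and this was not tested.

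RefSeq start windows on GRCh38.p14, from 250 bases before to 50 bases after an annotated start, were found for 5 of the 6 genes in 6 entries. The start of ERVFRD-1 was not among them. DNA methylation in mammals falls on CpG dinucleotides, so their number in these windows was counted, a palindrome being read once for both strands. The windows shown belong to 3 genes whose RNA changed with decitabine in HUCCT1. Of these, 1 with fewer CpGs than the median window and 1 CpG-rich one rose, and 1 fell. They are written 5′ to 3′ along the gene with each CpG in capitals, for ERV3-1 at chr7:65006638-65006937 (minus strand), ERVK13-1 at chr16:2673390-2673689 (minus strand) and ERVK3-1 at chr19:58305127-58305426 (plus strand).
ERV3-1: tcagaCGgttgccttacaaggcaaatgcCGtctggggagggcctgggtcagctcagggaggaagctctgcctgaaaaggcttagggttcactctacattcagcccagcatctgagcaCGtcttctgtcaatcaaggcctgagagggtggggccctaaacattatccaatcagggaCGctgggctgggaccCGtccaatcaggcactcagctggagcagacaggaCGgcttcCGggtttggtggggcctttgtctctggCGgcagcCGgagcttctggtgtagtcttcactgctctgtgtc
ERVK13-1: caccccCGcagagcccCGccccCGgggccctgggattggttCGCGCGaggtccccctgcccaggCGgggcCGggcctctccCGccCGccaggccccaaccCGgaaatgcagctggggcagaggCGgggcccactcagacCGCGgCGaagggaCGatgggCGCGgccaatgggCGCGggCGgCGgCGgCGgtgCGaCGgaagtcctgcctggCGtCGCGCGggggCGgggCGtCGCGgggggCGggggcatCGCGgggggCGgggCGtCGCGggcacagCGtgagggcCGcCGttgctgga
ERVK3-1: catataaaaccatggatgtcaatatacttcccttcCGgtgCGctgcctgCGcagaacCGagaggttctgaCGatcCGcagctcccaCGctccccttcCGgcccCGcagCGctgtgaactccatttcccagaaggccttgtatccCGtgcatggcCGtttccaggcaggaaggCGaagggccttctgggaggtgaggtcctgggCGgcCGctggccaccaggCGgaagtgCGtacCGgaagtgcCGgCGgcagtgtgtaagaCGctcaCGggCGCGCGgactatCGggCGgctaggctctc
The ERV3-1 window held 9 CpGs, the ERVK13-1 window 44 and the ERVK3-1 window 27. Over all 35116 RefSeq windows the median was 14, with quartiles of 4 and 28, and 96.0% held at least 1 CpG. More CpGs than in 95.8% of windows were therefore present at the ERVK13-1 start, while the count of ERV3-1 exceeded only 41.6% of them. A second ERV3-1 start, 7301 bases inside the gene, had 4 CpGs. The ERVW-1 window had 5 and lay 6562 bases inside the GENCODE span, the ERVK13-1 window likewise 8959 bases inside, and the ERVMER34-1 window had 24. The motif TATAAA, searched on both strands, was present at the inner ERV3-1 start, at ERVK3-1 and at ERVW-1, and 11.5% of all windows held it. These are letter counts, and methylation itself was not measured in these libraries.

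The 8 EGI-1 libraries held 23139065 to 33181930 counts each, and the 4 HUCCT1 libraries 32519985 to 34965627. The summed level of 8 biliary epithelial markers was 8230 to 9200 CPM in EGI-1 and 8220 to 14100 CPM in HUCCT1, where CPM is the usual library-size-scaled count. The marker sums in this paragraph were scaled by library size alone. CPM values elsewhere also carry TMM factors over the 12 libraries. Of these markers SPP1 stayed at 3 counts or fewer in EGI-1, and 5 of 7 tested fell with decitabine in HUCCT1, beside 13.9% of all genes. A summed level of 4 hepatocyte markers did not exceed 0.206 CPM in any library. The EGI-1 combination replicate 2 stood apart with genes of leukocytes, since PTPRC had 381 counts there and at most 7 elsewhere, and CD3E had 148 counts there and at most 4 in the other EGI-1 libraries. The summed level of 5 leukocyte markers was thus between 0.765 and 21.2 CPM in EGI-1, and results that rest on the combination are given with and without that library. In EGI-1 the summed fibroblast markers ranged from 30.3 to 52.2 CPM and the summed endothelial markers from 20.8 to 31 CPM. In HUCCT1 the summed fibroblast markers ranged from 23.9 to 175 CPM and the summed endothelial markers from 3.55 to 23.7 CPM. Of 5 fibroblast and 3 endothelial markers, 3 of each were tested and all rose with decitabine, beside 19.6% of all genes. COL1A1 went from 805 and 896 counts to 5089 and 5611. COL1A2, PDGFRA and CD3E had 2 counts or fewer in each vehicle library and passed the count filter only through the decitabine libraries, so they could only rise. CDH5, with 11 and 6 counts with vehicle and 269 and 226 with decitabine in HUCCT1, also needed the decitabine libraries to pass. The direction of these marker counts was therefore partly fixed by the filter. CD3E rose there too, from 0 and 1 counts to 17 and 23. The part of these marker genes in the results was not tested. Among genes often silenced by methylation in cancers, SOX17 went from 24 and 22 counts to 799 and 1004 in HUCCT1 with decitabine, whereas in EGI-1 SOX17, SFRP1 and UCHL1 had at most 4 counts in any library.

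None of the 6 genes was near zero, and the lowest count of any of them in any library was 15. ERVW-1 was the most sparsely counted, with 15 to 106 counts, and ERVK13-1 the most, with 430 to 698 counts. Per kilobase of exon, which allows levels to be set side by side between genes, ERVFRD-1 stood highest in EGI-1 vehicle cells at 2.53 ± 0.374 CPM per kb (SD, n = 2), and ERVW-1 lowest at 0.146 ± 0.0253 CPM per kb. ERVK13-1 came to 1.5 ± 0.00996, ERV3-1 to 1.35 ± 0.0432, ERVK3-1 to 0.903 ± 0.0703 and ERVMER34-1 to 0.678 ± 0.0105 CPM per kb in the same libraries. The length was that of the annotated exons of the gene, not of the transcript in use. It was 12271 bases with 46 transcripts for ERVK13-1 and 3235 bases with 2 transcripts for ERVFRD-1. The order of the genes therefore depends on the annotation. Summed over all 6 genes, the level was 38.4 to 46.2 CPM in every library, and the highest of these sums was in the first HUCCT1 decitabine library.

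**Figure D1:**
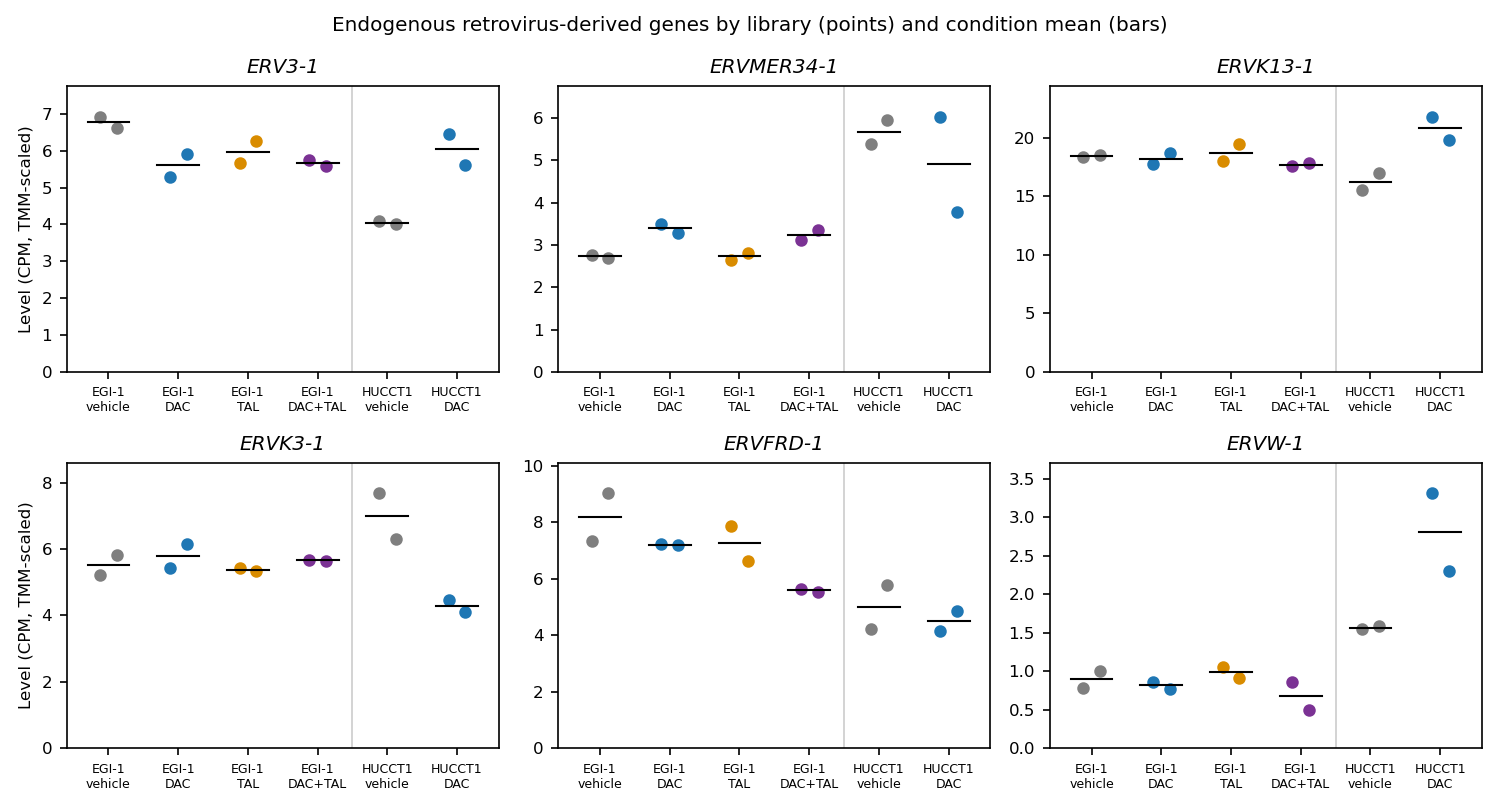
Level in CPM (y axis, from 0) of each retrovirus-derived gene in the 12 libraries, grouped by cell line and treatment (DAC, decitabine; TAL, talazoparib); points are libraries and bars condition means. In HUCCT1 the ERVW-1, ERV3-1 and ERVK13-1 points with decitabine lie above both vehicle points and those of ERVK3-1 below, and the ERVFRD-1 points of the EGI-1 combination lie below every other EGI-1 library.

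Without drug the lines differed in 4 of the 6 genes, ERVMER34-1 and ERVW-1 being higher in HUCCT1 and ERV3-1 and ERVFRD-1 higher in EGI-1. ERVMER34-1 was 5.66 ± 0.409 CPM in HUCCT1 and 2.73 ± 0.0421 CPM in EGI-1 vehicle cells, with no overlap of libraries. ERVW-1 was 1.57 ± 0.0266 CPM in HUCCT1 and 0.898 ± 0.155 CPM in EGI-1. ERVFRD-1 went the other way, with 5.0 ± 1.11 CPM in HUCCT1 and 8.18 ± 1.21 CPM in EGI-1. ERV3-1 likewise was lower in HUCCT1, at 4.04 ± 0.0616 against 6.77 ± 0.217 CPM. The log2 fold changes of HUCCT1 over EGI-1 were 1.05 (SE 0.208, adjusted p = 0.000185) for ERVMER34-1, 0.81 (SE 0.315, adjusted p = 0.0344) for ERVW-1, -0.71 (SE 0.172, adjusted p = 0.0014) for ERVFRD-1 and -0.74 (SE 0.157, adjusted p = 0.000369) for ERV3-1, with p from the quasi-likelihood test of edgeR, Benjamini-Hochberg adjusted over 25096 genes. ERVK3-1 at 0.34 (adjusted p = 0.0718) and ERVK13-1 at -0.18 (adjusted p = 0.155) did not pass. Of all genes tested, 55.8% differed between the lines, so 4 of 6 is near the background. The codes in the library names also differ between the lines. What they stand for is not given, and a difference in library handling cannot be told apart from the line. ERVW-1 lost its call when any 1 of the 4 vehicle libraries was left out (adjusted p = 0.056 to 0.224, edgeR). With upper-quartile scaling the median of all genes moved from -0.0084 to -0.13 on the log2 scale, a shift of -0.12, ERVK13-1 passed at -0.30 and ERVW-1 no longer passed at 0.69 (adjusted p = 0.0717).

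In HUCCT1, decitabine was followed by changes in 4 of the 6 genes, with ERVW-1, ERV3-1 and ERVK13-1 higher and ERVK3-1 lower. Called genes made up 33.5% of all 22479 genes tested in this comparison, 19.6% higher and 13.9% lower, so that 4 of 6 stood above that share but among few genes. The median log2 fold change of the 6 genes was 0.094 and that of all genes 0.0020. In bulk RNA such as this, a change in RNA per cell and a change in the share of cells that make it cannot be told apart.

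Of the syncytin genes, ERVW-1 had 47 and 48 counts in the vehicle libraries and 106 and 68 with decitabine. Both decitabine libraries were above both vehicle libraries, although the first decitabine library was well above the second. ERVW-1 RNA was 1.78-fold higher, a log2 fold change of 0.83 (SE 0.273, adjusted p = 0.0204, edgeR). Counts of ERVW-1 were taken over 6130 exonic bases with 4 annotated transcripts, and which of them was in use is not known. ERVFRD-1 had 128 and 175 counts with vehicle and 133 and 144 with decitabine, and the conditions overlapped. Its log2 fold change was -0.16, with a 95% interval from -0.59 to 0.27 (adjusted p = 0.602, edgeR). ERVW-1 thus passed the test in this line and ERVFRD-1 did not, a difference between the genes that was not itself tested.

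Of the other envelope genes, ERV3-1 stood at 4.09 and 4.0 CPM with vehicle and at 6.47 and 5.61 CPM with decitabine, with no overlap. The change was 1.48-fold, or 0.57 on the log2 scale (SE 0.195, adjusted p = 0.0257, edgeR). ERVMER34-1, the gene of HEMO, stood at 5.37 and 5.95 CPM with vehicle, and its decitabine libraries lay on either side of these at 6.03 and 3.79 CPM. Its log2 fold change of -0.21 had a 95% interval from -0.65 to 0.23 (adjusted p = 0.486, edgeR). Without the first decitabine library the value was -0.60 and without the second 0.084, neither past the threshold.

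The HERV-K genes moved apart. The non-coding ERVK13-1 had 471 and 513 counts with vehicle and 698 and 586 with decitabine, so all its decitabine counts were the higher. It rose 1.27-fold, or 0.35 on the log2 scale (SE 0.132, adjusted p = 0.0443, edgeR). ERVK3-1 had 233 and 191 counts with vehicle and 143 and 121 with decitabine, with no overlap. It fell by 0.72 on the log2 scale (SE 0.191, adjusted p = 0.00457, edgeR), to 0.607 of the vehicle level. The window printed for ERVK3-1 had 27 CpGs and that of ERVK13-1 44, while both ERVW-1 and ERV3-1, which rose, had windows below the median of 14. ERVMER34-1, which did not pass, had 24. The ERVW-1 and ERVK13-1 windows lay 6562 and 8959 bases inside the gene spans, and whether they are the starts in use is not known. A relation of CpG number to response was not tested.

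These HUCCT1 calls were sensitive to the test and to single libraries. With DESeq2 only ERVK3-1 passed, and ERV3-1 (adjusted p = 0.0828), ERVK13-1 (adjusted p = 0.0901) and ERVW-1 (adjusted p = 0.0936) kept their direction. Leaving out each library in turn left between 0 (without vehicle replicate 1) and 3 calls (without decitabine replicate 2), and 1 call without vehicle replicate 2 or without decitabine replicate 1, with ERVK3-1 between -0.87 and -0.58, ERV3-1 between 0.46 and 0.67, ERVK13-1 between 0.27 and 0.42 and ERVW-1 between 0.53 and 1.07 on the log2 scale.

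**Figure D2:**
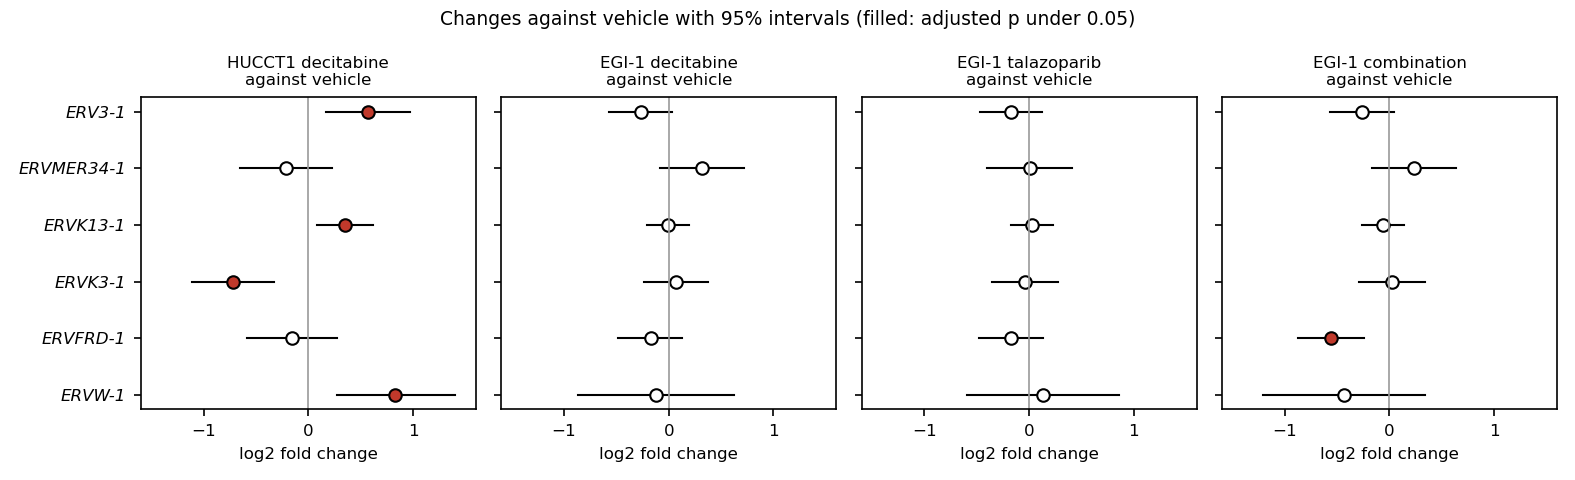
Log2 fold change against vehicle of the same line (x axis) with its 95% interval for the 6 retrovirus-derived genes, in HUCCT1 with decitabine and in EGI-1 with decitabine, talazoparib or both; filled points had an adjusted p under 0.05 in edgeR. Filled points are ERVW-1 at 0.83, ERV3-1 at 0.57, ERVK13-1 at 0.35 and ERVK3-1 at -0.72 in HUCCT1 and ERVFRD-1 at -0.56 in the EGI-1 combination; the widest intervals belong to ERVW-1.

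In EGI-1, neither single agent changed any of the 6 genes past the threshold, and the combination lowered 1, ERVFRD-1. Decitabine alone gave 0 calls among the 6 by edgeR, also at an unadjusted p under 0.05, and 0 with DESeq2, where 0.544% of 22406 genes were called. Talazoparib alone gave 0 of 6, also 0 at an unadjusted p under 0.05 and 0 with DESeq2, where 4.12% of genes were called. The intervals show what was left undetected. For ERV3-1 with decitabine the log2 fold change was -0.27 with a 95% interval from -0.57 to 0.03, for ERVK13-1 -0.0099 with an interval from -0.21 to 0.19, and for ERVW-1 -0.12 with an interval from -0.87 to 0.62. A change of ERVW-1 in EGI-1 as large as its value in HUCCT1 would lie outside that interval, with 15 to 32 counts per library behind it, whereas a rise within it could not be seen.

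Within EGI-1, ERVFRD-1 RNA was lowest in the libraries that received both agents. ERVFRD-1 stood at 7.32 and 9.03 CPM with vehicle, 7.22 and 7.20 CPM with decitabine, 7.87 and 6.65 CPM with talazoparib, and 5.64 and 5.53 CPM with the combination. No other EGI-1 library was as low as those of the combination. Against vehicle the log2 fold change was -0.56 (SE 0.148, adjusted p = 0.0136, edgeR), a level 0.680 of vehicle, in a comparison that called 18.7% of all genes, 11.1% higher and 7.61% lower, so that 1 call in 6 was near the background. Upper-quartile scaling turned the split of all calls in this comparison from 59.3% to 49.2% higher. Without combination replicate 2, the library with leukocyte genes, ERVFRD-1 was at -0.54 (adjusted p = 0.084). Without combination replicate 1 it was at -0.57 (adjusted p = 0.0549) and without vehicle replicate 2 at -0.40 (adjusted p = 0.214).

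Against either single agent ERVFRD-1 was also lower with the combination, without passing the threshold. The log2 fold change was -0.38 against decitabine (95% interval -0.70 to -0.07, adjusted p = 0.138, edgeR) and -0.38 against talazoparib (95% interval -0.70 to -0.07, adjusted p = 0.257, edgeR). Without combination replicate 2 these values were -0.37 (adjusted p = 0.349, edgeR) and -0.36 (adjusted p = 0.576, edgeR). Of the 6 genes 0 were called in these comparisons by edgeR and by DESeq2, with 1 at an unadjusted p under 0.05 in each, ERVFRD-1, where 7.68% and 1.92% of all genes were called. Set against decitabine and talazoparib added together, ERVFRD-1 departed by -0.21 on the log2 scale with an interval from -0.65 to 0.23 (adjusted p = 1, edgeR), or by -0.19 without combination replicate 2, so a drop beyond the sum of both agents was not detected. For such a departure 0 of 6 members were called by edgeR, also 0 at an unadjusted p under 0.05 and 0 with DESeq2, beside 0.161% of all genes.

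The other members stayed close to vehicle in EGI-1. ERV3-1 stood at 6.93 and 6.62 CPM with vehicle, 5.29 and 5.92 CPM with decitabine, 5.67 and 6.27 CPM with talazoparib and 5.76 and 5.60 CPM with the combination. Both vehicle libraries were above all others of the line, but none of these differences passed the test. ERVMER34-1 had 84 and 75, 105 and 90, 65 and 98, and 76 and 102 counts in the same order, and its decitabine and combination libraries were above the vehicle libraries once scaled, with log2 fold changes of 0.32 (adjusted p = 0.668, edgeR) and 0.24 (adjusted p = 0.438, edgeR). ERVK13-1 ranged from 17.6 to 19.5 CPM and ERVK3-1 from 5.22 to 6.14 CPM over the 8 EGI-1 libraries, without order. Without combination replicate 2 the ERVMER34-1 value was 0.18. ERVW-1 had 24 and 28 counts with vehicle and 21 and 15 with the combination, and once scaled the first combination library, at 0.858 CPM, overlapped vehicle while the second was lower, at 0.494 CPM. Its log2 fold change of -0.44 (95% interval -1.21 to 0.34) rested on 1 library, being -0.065 without combination replicate 2 and -0.86 without combination replicate 1.

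Whether the lines responded unequally to decitabine was tested as a difference of their log2 fold changes, at 1 µM in HUCCT1 and 0.5 µM in EGI-1. ERV3-1 was raised in HUCCT1 and not in EGI-1, a difference in log2 fold change of 0.85 (95% interval 0.40 to 1.31, adjusted p = 0.00983, edgeR over 25096 genes). ERVK3-1 fell in HUCCT1 and not in EGI-1, a difference of -0.77 (95% interval -1.25 to -0.30, adjusted p = 0.0229, edgeR). For ERVW-1 the difference was 0.97 (adjusted p = 0.154, edgeR) and for ERVK13-1 0.37 (adjusted p = 0.0963, edgeR), so the rise of these 2 genes in HUCCT1 was not shown to differ from EGI-1. Both calls, 2 of 6 genes, compare with 15.9% of all genes. Dose and the codes in the library names differed along with the line and cannot be told apart from it. ERVK3-1 lost its call in 4 of 12 fits that each left out 1 library, and ERV3-1 in 1 of 12, without EGI-1 vehicle replicate 1 (adjusted p = 0.056).

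The order of conditions differed from gene to gene. ERVW-1 was highest in HUCCT1 with decitabine (2.81 ± 0.717 CPM), then HUCCT1 vehicle, and these 2 conditions did not overlap each other or EGI-1, whose 4 conditions could not be ordered. ERVFRD-1 was highest in EGI-1 vehicle and lowest in HUCCT1 with decitabine (4.51 ± 0.503 CPM). For this gene HUCCT1 vehicle overlapped the EGI-1 combination and HUCCT1 with decitabine, which did not overlap each other. For ERV3-1, HUCCT1 vehicle at 4.04 CPM was below all other conditions and HUCCT1 with decitabine, at 6.04 ± 0.607 CPM, came within the range of EGI-1. ERVK3-1 spanned all conditions within HUCCT1 alone, being highest with vehicle (7.0 ± 0.966 CPM) and lowest with decitabine (4.28 ± 0.268 CPM).

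The partners of the syncytins gave a further contrast. SLC1A5, the main receptor of syncytin-1, had 5724 and 6433 counts with vehicle and 6272 and 6538 with decitabine in HUCCT1, with overlap (log2 fold change 0.045, adjusted p = 0.796, edgeR). MFSD2A, the receptor of syncytin-2 and a lysolipid transporter, had 396 and 399 counts with vehicle and 913 and 815 with decitabine. Its libraries were far apart, and it rose by 1.09 on the log2 scale (SE 0.129, adjusted p = 2.67e-07, edgeR).

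In EGI-1, MFSD2A had 236 and 232 counts with vehicle, 293 and 439 with talazoparib and 335 and 431 with the combination. It rose by 0.61 (SE 0.116, adjusted p = 0.00402, edgeR) and 0.79 (SE 0.115, adjusted p = 0.000108, edgeR) on the log2 scale, and by 0.76 in the combination without replicate 2 (adjusted p = 0.00236). The receptor was thus higher in the arm in which the RNA of its ligand ERVFRD-1 was lower. GCM1, the trophoblast factor that drives syncytin genes, had 9 counts or fewer in every library. TFAP2C, another listed regulator, had 1 and 0 counts with vehicle and 157 and 170 with decitabine in HUCCT1. It passed the count filter there only through the decitabine libraries. GATA2, with 6 and 12 counts with vehicle and 32 and 58 with decitabine in HUCCT1, needed those libraries too. The number of risers given next for HUCCT1 was therefore partly fixed by the filter. Of 10 receptors and trophoblast regulators listed, 9 were tested in HUCCT1, of which 4 rose and 2 fell, and 8 in the EGI-1 combination, of which 2 rose and 3 fell (2 and 1 without combination replicate 2), where 33.5% and 18.7% of all genes were called.

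Few of the other listed retroviral genes could be tested. Of 20 such names 10 were matched in the table and 3 were tested in HUCCT1, of which 2 rose with decitabine and 0 fell, beside 19.6% and 13.9% of all genes. The 2 that rose, ERVH48-1 and HHLA2, needed the decitabine libraries to pass the count filter. The direction of this count was therefore largely fixed by the filter. ERVH48-1 encodes suppressyn, a secreted envelope protein that binds SLC1A5 and blocks fusion by syncytin-1. It had 4 and 11 counts with vehicle and 81 and 50 with decitabine in HUCCT1, and rose by 3.07 on the log2 scale (SE 0.434, adjusted p = 3.9e-06, edgeR). RNA counted at ERVW-1 and at ERVH48-1 was thus higher in these libraries for both genes.

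HHLA2, a B7-family immune ligand named for its link to a HERV-H repeat, had 3 and 1 counts with vehicle and 69 and 41 with decitabine in HUCCT1. As vehicle was at the floor of 3 counts per library, the rise was at least 13.8-fold. HHLA3 had 130 and 151 counts with vehicle and 115 and 93 with decitabine, and did not pass (adjusted p = 0.0971, edgeR).

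In EGI-1, ERVH48-1 had 31 and 27 counts with vehicle, 26 and 24 with decitabine, 21 and 21 with talazoparib and 13 and 9 with the combination. It was lowest with both agents, as ERVFRD-1 was, and fell by 1.30 on the log2 scale against vehicle (SE 0.397, adjusted p = 0.0299, edgeR), or by 0.90 without combination replicate 2 (adjusted p = 0.246). DESeq2 gave an adjusted p of 0.11. The decitabine effect on ERVH48-1 differed between the lines by 3.27 on the log2 scale (SE 0.581, adjusted p = 0.000409, edgeR).

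**Figure D3:**
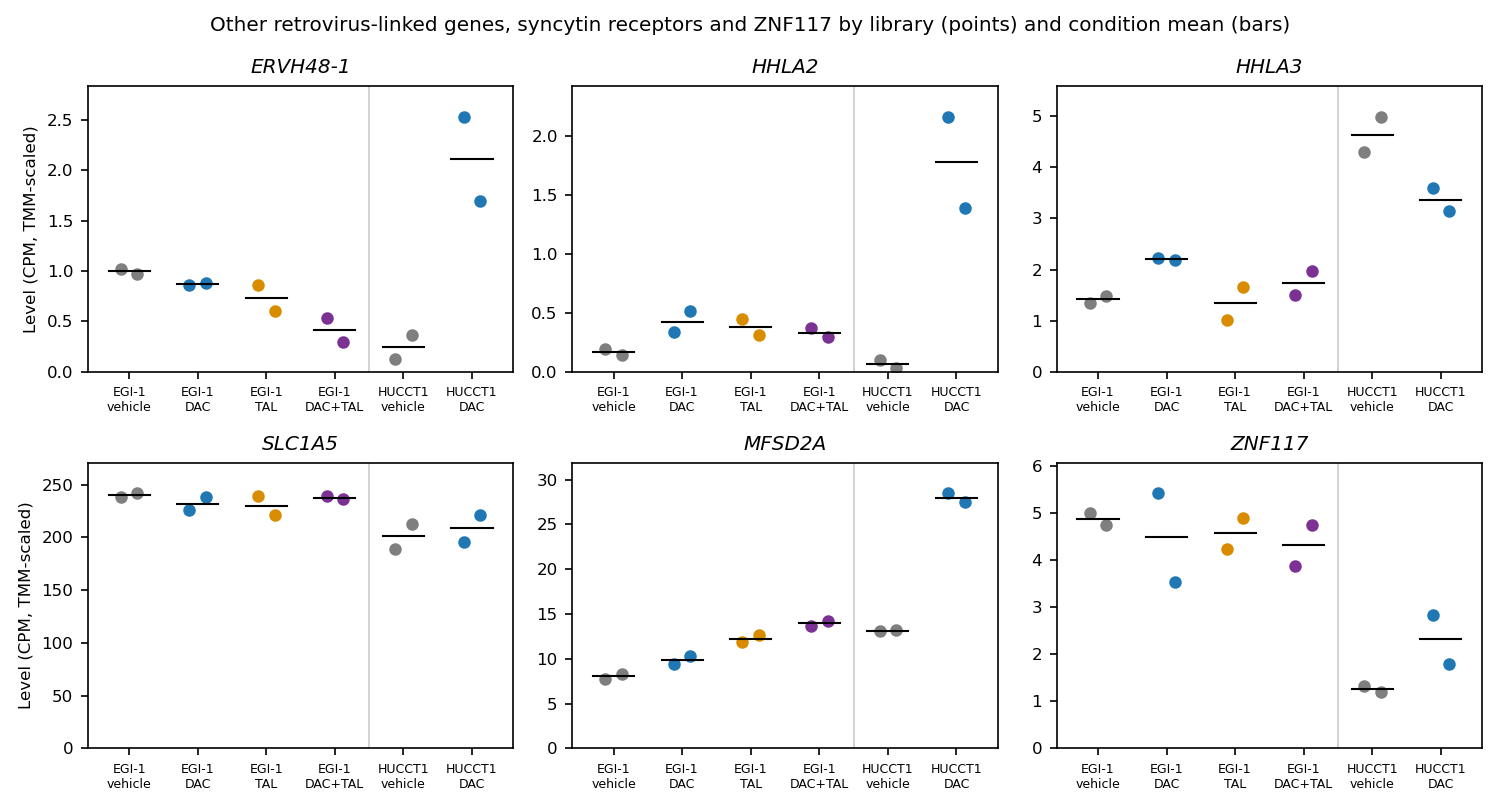
Level in CPM (y axis, from 0) of ERVH48-1, HHLA2, HHLA3, the syncytin receptors SLC1A5 and MFSD2A, and ZNF117 in the 12 libraries by line and treatment (DAC, decitabine; TAL, talazoparib); points are libraries and bars condition means. ERVH48-1 and HHLA2 are highest in HUCCT1 with decitabine, MFSD2A stands at 28.0 CPM there against 13.1 CPM with vehicle, and SLC1A5 overlaps between vehicle and treated libraries of HUCCT1.

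Genes derived from retrotransposons, such as the imprinted PEG10 and the PNMA and RTL families, were read as a wider group. Of 30 listed, 18 were tested in HUCCT1, where 10 rose and 4 fell with decitabine, beside 19.6% and 13.9% of all genes. Of those that rose, 5 were at the floor of 3 counts in vehicle and passed the count filter only through the decitabine libraries. PNMA5 and ARC, with 10 counts or fewer in each vehicle library, did so too. A fall of these genes could not have been seen, so the count of risers was partly fixed by the filter. PNMA5 went from 4 and 10 counts to 4720 and 4831, a rise of 9.36 on the log2 scale (SE 0.214, adjusted p = 6.29e-21, edgeR). LDOC1 was at 0 in both vehicle libraries and had 446 and 450 counts with decitabine, at least 140-fold higher. PEG10, a placental gene, fell by 0.95 (SE 0.108, adjusted p = 1.24e-07, edgeR) from 15631 and 15633 to 9160 and 7394 counts. The median log2 fold change of the 18 was 0.38, also with the 5 genes at the floor in vehicle set to their bounds. In the EGI-1 combination 9 were tested, of which 2 rose and 1 fell (1 and 1 of 10 tested without combination replicate 2), beside 11.1% and 7.61% of all genes.

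RNAs of the machinery that silences retroviral copies were lower in part. Of 31 listed genes of DNA methylation, KRAB zinc finger repression and heterochromatin, 28 were tested in HUCCT1, where 2 rose and 14 fell with decitabine, with a median log2 fold change of -0.27, where of all genes 19.6% rose and 13.9% fell with a median of 0.0020. UHRF1, which brings DNMT1 to replicating DNA, fell from 241 ± 18 to 149 ± 3.9 CPM (log2 fold change -0.71, adjusted p = 1.01e-05, edgeR), and TRIM28, the corepressor of KRAB zinc fingers, from 724 ± 45 to 571 ± 32 CPM (log2 fold change -0.35, adjusted p = 0.00974, edgeR). DNMT3B, a de novo methyltransferase, rose by 0.57 (adjusted p = 0.000509, edgeR). In the EGI-1 combination 29 were tested, of which 1 rose and 10 fell, with a median of -0.15, where of all genes 11.1% rose and 7.61% fell with a median of -0.025, and 1 rose and 7 fell without combination replicate 2. UHRF1 fell there by 0.38 on the log2 scale (adjusted p = 0.000148, edgeR) and SETDB1, a histone methyltransferase that acts with TRIM28, by 0.42 (adjusted p = 0.00217, edgeR). Without combination replicate 2 the adjusted p was 0.00633 for UHRF1 and 0.0435 for SETDB1.

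Syncytiotrophoblast genes did not move as one group. Of 21 listed, 11 were tested in HUCCT1, where 7 rose and 4 fell with decitabine, with a median log2 fold change of 1.64, beside 19.6% higher and 13.9% lower among all genes. PAPPA, PSG3 and PSG4 had 9 counts or fewer in each vehicle library and passed the count filter only through the decitabine libraries. CGB3, with 10 and 3 counts with vehicle and 11 and 31 with decitabine, needed those libraries too. The count of risers and the median were therefore partly fixed by the filter. PAPPA, a placental protease, rose by 5.48 (SE 0.285, adjusted p = 5.92e-14, edgeR), while the hormone subunit gene CGB5 fell by 1.01 (SE 0.151, adjusted p = 1.03e-05, edgeR). In the EGI-1 combination 10 were tested, with 6 higher and 1 lower (5 and 0 of 11 tested without combination replicate 2), beside 11.1% and 7.61% of all genes. There PAPPA fell by 1.47 (adjusted p = 0.0187, edgeR) and CGB5 rose by 1.19 (adjusted p = 0.000199, edgeR). Without combination replicate 2 the adjusted p was 0.0782 for PAPPA and 0.00203 for CGB5. The CGB and PSG genes are near-identical copies, so counts of single members are uncertain.

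Genes beside the retroviral loci were read to see whether whole loci moved. Of 24 neighbours within 20 kb, 15 were tested in HUCCT1, where 2 rose and 3 fell, near the 33.5% of all genes called. ZNF117, which shares exons with ERV3-1, had 40 and 36 counts with vehicle and 91 and 53 with decitabine. It rose by 0.88 on the log2 scale (SE 0.302, adjusted p = 0.0265, edgeR; 0.117 with DESeq2), so both overlapping genes were higher and the reads of their shared exons cannot be assigned to one of them.

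At ERVK3-1 and ERVW-1 the overlapping genes did not pass. The read-through gene ZNF8-ERVK3-1 had 59 and 62 counts with vehicle and 71 and 60 with decitabine (log2 fold change 0.079, adjusted p = 0.854, edgeR), and the antisense ENSG00000283103 had a log2 fold change of -0.40 (adjusted p = 0.157, edgeR). ENSG00000283515 had 13 and 8 counts and then 16 and 7 (adjusted p = 0.927, edgeR), and ENSG00000244055, opposite ERVW-1, had 44 and 37 and then 57 and 54 (log2 fold change 0.42, adjusted p = 0.304, edgeR). ENSG00000212490, inside ERVMER34-1, had at most 5 counts in any library and was not tested. SMIM13, across the ERVFRD-1 span, rose in HUCCT1 by 0.65 (SE 0.128, adjusted p = 0.000257, edgeR) while ERVFRD-1 did not pass. In the EGI-1 combination SMIM13 had a log2 fold change of 0.071 (adjusted p = 0.639, edgeR), or -0.0996 without combination replicate 2, while ERVFRD-1 fell. DANCR, opposite ERVMER34-1, fell by 0.36 in HUCCT1 (adjusted p = 0.0143, edgeR) and by 0.43 in the EGI-1 combination (adjusted p = 0.00231, edgeR; 0.00308 without combination replicate 2). DANCR and ERVMER34-1 share 127 exonic bases on opposite strands.

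Likeness of pattern was measured over the 12 libraries as the Pearson correlation of log2 CPM, centred on the mean of each line, with 19937 genes. The genes most like ERVW-1 were LINC00943 (r = 0.925), ENSG00000288107 (r = 0.909) and ZNF239 (r = 0.903), and those most like ERVFRD-1 were PHB2 (r = 0.945), HCFC1 (r = 0.926) and ENSG00000255933 (r = 0.921). ERV3-1 was most like MPZL2 (r = 0.953), ENSG00000287642 (r = 0.950) and ENSG00000260899 (r = 0.943), and ERVMER34-1 most like TMEM92-AS1 (r = 0.899), ENSG00000266538 (r = 0.875) and GOLGB1 (r = 0.871). ERVK13-1 was most like DUOX1 (r = 0.954), LINC01232 (r = 0.945) and DIP2C (r = 0.944), and ERVK3-1 most like SFT2D2 (r = 0.968), ME1 (r = 0.959) and MTERF2 (r = 0.956). Among the 6 genes themselves, ERV3-1 and ERVK13-1 had r = 0.877, ERVK13-1 and ERVK3-1 r = -0.848, and ERVFRD-1 lay between -0.303 and 0.220 with each of the others. The points share their libraries and depth, and these values are descriptions only.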

How the data were processed

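Raw counts per gene were deposited by the authors as 1 table of 60651 genes without normalization. The submitters' processing notes name fastp, Trim Galore, HISAT2, featureCounts and GRCh38, whereas the methods name fastp, STAR and RSEM. The table has the layout of featureCounts, and the strand setting, annotation and handling of multi-mapped reads are not given in the sources used here. HUCCT1 is absent from the sequencing methods, and its conditions come from the labels, and the talazoparib libraries carry the number 50 in their names where labels and methods give 200 nM. Labels do not say whether replicates were separate cultures, so p-values measure only the spread between these libraries, which may be technical.

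Of the identifiers, 60437 were matched to a GENCODE 44 symbol and 214 were not. The test was that of edgeR 4.0.16, run in R 4.3.3 on the counts (filterByExpr by arm, TMM, robust quasi-likelihood, two-sided, Benjamini-Hochberg over all genes of a fit, adjusted p under 0.05). The 4 HUCCT1 libraries (22479 genes), the 8 EGI-1 libraries (22406 genes) and all 12 (25096 genes) were fitted separately. Steps were tested on simulated data. Intervals are 95%. With 2 libraries against 2 an exact permutation test cannot go below 0.333, so none is given. An arm with 3 counts or fewer in each library was read as at the floor. Alternatives were other scaling factors, no filter, DESeq2 1.42.0, a replicate block, arms fitted alone and each library left out. The list counts and listed or neighbouring genes without EGI-1 combination replicate 2 were added after seeing the data.

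All 6 genes are named. The genes and lists were chosen with earlier results of these data known. Overlapping neighbours and the 3 most correlated genes were named by rule, and other genes of a list as examples of its counts, chosen after their values were seen. Between replicates the chi-square per gene was 2.56 to 11.1, so no library was a copy.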

Additional observations from a re-analysis of the deposited data

Results flagged for a closer look

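ERV3-1 and ERVK3-1 drew attention because the effect of decitabine on them differed between the lines when the difference itself was tested. For ERV3-1, HUCCT1 minus EGI-1 was 0.85 on the log2 scale (adjusted p = 0.00983, edgeR), with means of 4.04 and 6.04 CPM without and with decitabine in HUCCT1 and 6.77 and 5.60 CPM in EGI-1. For ERVK3-1 it was -0.77 (adjusted p = 0.0229, edgeR), with 7.0 and 4.28 CPM in HUCCT1 and 5.52 and 5.78 CPM in EGI-1. The dose and the codes in the library names differed along with the line and cannot be told apart from it.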

How the results depend on the processing

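Over the alternatives no member changed sign where a call was made: of the single-gene values, 760 stayed on their side of the threshold, 29 lost it, 3 gained it and 0 reversed. The 760 include values that were not called to begin with, so they do not give the share of calls that held. In HUCCT1, 4 members were called, against 1 with DESeq2, and 0 to 3 with each library left out in turn. ERVK13-1 also lost its call without the filter on low counts (adjusted p = 0.0709). For the EGI-1 combination against vehicle, leaving out a library gave 0 to 1 calls against 1. The decitabine effect between the lines gave 0 to 3 calls against 2, with ERVMER34-1 called without HUCCT1 decitabine replicate 1 (-0.90). Between vehicle cells, ERVK3-1 was called without HUCCT1 vehicle replicate 2 (0.48), and ERVW-1 was not with DESeq2 (adjusted p = 0.0999). The causes were not tested.

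Counts over all genes moved by more than 1.5 times for EGI-1 decitabine (122; 335 without filter, 43 from its own 4 libraries, 22 to 417 with a library left out), talazoparib (923; 1851 from 4 libraries, 247 to 1663 with a library left out), the combination against vehicle (4194; 1850 to 5288 with a library left out), against decitabine (1720; 963 from 4 libraries, 853 to 2544 left out) and against talazoparib (431; 897 without filter, 700 from 4 libraries, 111 to 1007 left out), the departure (36; 71 without filter, 27 to 85 left out) and the line difference (4000; 2540 to 3865 left out).

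Replicate numbers did not pair the EGI-1 samples, whose deviations correlated between -0.0684 and 0.0572, and HUCCT1 has 1 pair of arms (0.109). With a replicate block the members called stayed at 4 in HUCCT1, 1 in the EGI-1 combination against vehicle, 2 for the line difference, 4 between vehicle cells and 0 elsewhere. Over all genes the block gave 60 calls by title number and 75 by library series for EGI-1 decitabine, and 249 by title number for the combination against talazoparib.

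At 15 to 106 counts ERVW-1 had the widest intervals, and smaller changes of it could not be seen.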
